A study of Mus musculus with 56 samples.

Results

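The genes described here are the 4 Notch receptor genes of the mouse (Notch1, Notch2, Notch3 and Notch4), 5 genes for their canonical ligands (Dll1, Dll3, Dll4, Jag1 and Jag2) and Hes5, a target gene of the pathway. They were chosen by name, and an H2A.Z peak was counted as theirs if the authors' lists of changed peaks name the gene or if the peak lay within 5 kb of the RefSeq gene span, which gave 23 of the 61420 H2A.Z peaks of the study. The peaks come from CUT&Tag, an assay that cuts and tags DNA next to an antibody bound to its target and so maps where a protein sits. The cells were mouse embryonic stem cells of the line RHKI(E14Tg2a), an HA-Rnaseh1 knock-in, and control and treated cells carried the same knock-in. The 4 control libraries had no doxycycline, and the 4 Dox libraries came from cells exposed to doxycycline at 500 ng/ml over 48 hours. The medium of both was NDiff 227 with LIF and FBS at 2%, to which the GSK3 inhibitor CHIR-99021 (3 µM) and the MEK inhibitor PD0325901 (1 µM) were added. RNase H1 cuts RNA that is paired with DNA, and thereby resolves R-loops. The comparison addresses where the histone variant H2A.Z is gained or lost on its induction. The design text also names a line ZX-1, which no sample label gives, so an effect of doxycycline itself cannot be told apart from that of the enzyme. The induction of Rnaseh1 was not measured in these files.

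The authors deposited the peak positions, a list of 9077 peaks where H2A.Z was lower and a list of 318 where it was higher. The direction is taken from the lists' names as Dox relative to control, which the headers leave unstated. Peak heights, sizes of change and values of single libraries are not part of these files. Depth and replicate spread are therefore unknown, no test between libraries could be run, and a peak in neither list is not shown to be unchanged. The data hold no expression, so the labelled cell type was not checked against its markers. The 48 libraries of other targets are not analysed here.

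Notch signalling passes between touching cells. A Delta-like or Jagged ligand on one cell binds a Notch receptor on its neighbour, an ADAM protease and then gamma-secretase cut the receptor, and the freed intracellular domain enters the nucleus, where it joins the DNA-binding protein RBPJ and a Mastermind co-activator to switch on genes of the Hes and Hey families. In embryonic stem cells the pathway is known for promoting neural fate once the cells leave self-renewal, and in the embryo it times somite formation and the birth of neurons.

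Of the peaks over a start site of these 10 genes, 6 of 9 had lower H2A.Z. Of those overlapping the genes elsewhere 4 of 7 had it, and of those in the 5 kb flanks 4 of 6. Over all pairs of a protein-coding gene and a peak within 5 kb of it, 29.5%, 17.2% and 22.7% were lower at these places. The authors' list of lower peaks names 6 of the 10 genes in 7 entries (Notch2, Notch4, Dll1, Dll3 and Dll4 with 1 each and Hes5 with 2). Of all protein-coding genes 26.5% are named in it. The list of higher peaks names 0 of the 10, and 0.918% of all protein-coding genes, a background at which a count of 0 is no result about these genes. By position, 22 peaks lay within 5 kb of the 10 genes, and 14 of these had lower H2A.Z (63.6%, 95% exact Clopper-Pearson interval 40.7 to 82.8%, which covers counting only). The remaining 8 were in neither list. Of all peaks within 5 kb of a protein-coding gene, 20.3% were lower and 0.277% higher, and of all peaks of the set 14.8% and 0.518%. None of the 22 was in the list of higher peaks, and a count of 0 among 22 allows a share of up to 13.6%, with 3 counts of the total as the limit. By this measure 8 of the 10 genes had a lower peak, all but Jag1 and Jag2, against 39.6% of the protein-coding genes with a peak in range. At 5 of the 10 (Notch1, Notch4, Dll3, Dll4 and Hes5) every peak in range was lower, which held for 15.8% of such protein-coding genes. The genes were chosen with the lists known, so these shares are a description and no test was made.

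**Figure D1:**
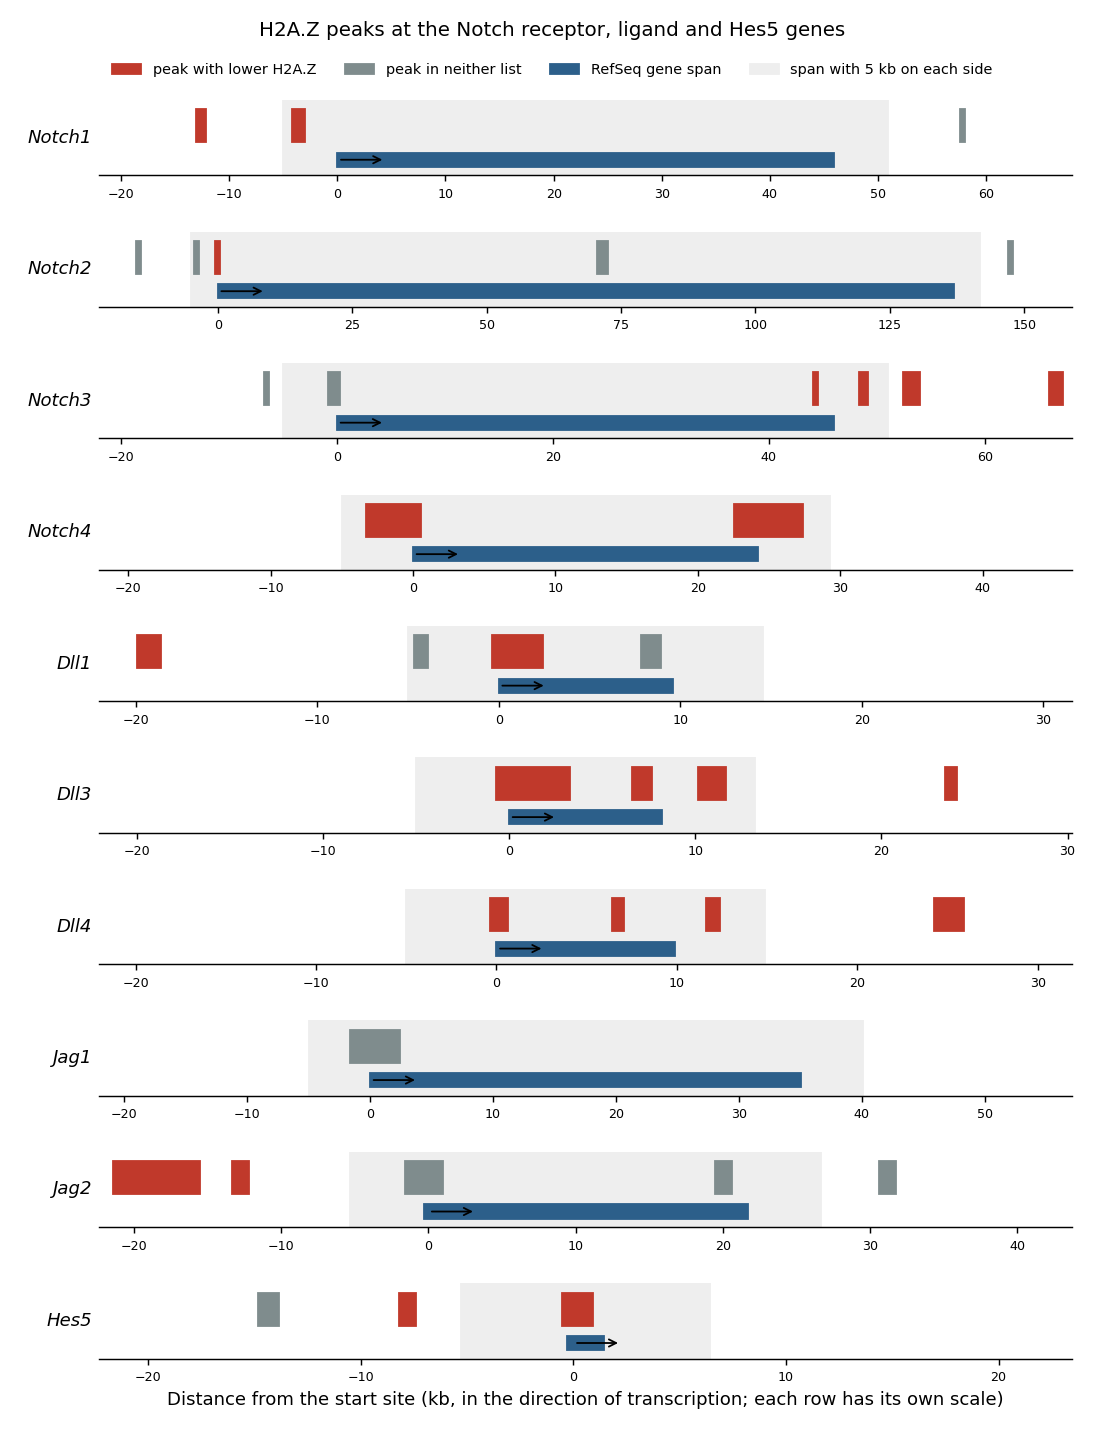
Map of the H2A.Z peaks at each of the 10 genes. The horizontal axis gives the distance from the start site in kb in the direction of transcription (for Dll1 from the upstream start site), with a scale of its own in each row; blue bars are gene spans, red boxes lower peaks and grey boxes peaks in neither list, drawn out to 20 kb beyond the gene, and narrow peaks are drawn slightly wider than they are. Dll3, Dll4 and Notch4 carry red boxes only, and Jag1 1 grey box at its start.

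The receptor genes had lower H2A.Z at different places. Together they had 9 peaks within 5 kb, of which 6 were lower (66.7%, against 20.3% for all protein-coding genes). Notch2, a receptor of kidney and marginal-zone B cell development, had its lower peak at the start site (chr3:98013043-98013971, 929 base pairs). The authors' deposited table places the centre of that peak 31 base pairs upstream of the TSS and annotates it as promoter. A further peak at Notch2, 3.9 kb upstream, and one of 2124 base pairs deep in the gene, 71.6 kb downstream of the start, were in neither list. So in the longest of the 10 genes, with a span of 137 kb, only the peak at the start was called lower.

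Notch3, the receptor of vascular smooth muscle, showed the reverse layout. Its start-site peak (chr17:32166632-32167718, 1087 base pairs) was in neither list, and both lower peaks lay at the other end of the gene. The peak at chr17:32122303-32122803 had the minimum width of the set, 501 base pairs. The authors' deposited table annotates it as exon 33 of 33 of Notch3 but names it for Pdxk-ps. The other, of 841 base pairs (chr17:32117742-32118582), lay beyond the gene's end, 48.7 kb from the start site, and is also named for Pdxk-ps there. Both overlap the span of the lncRNA gene Gm38585, which crosses the end of Notch3, so the peaks cannot be given to either gene alone.

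Notch4, a receptor of endothelial cells, had 2 broad lower peaks and no other. Of protein-coding genes with exactly 2 peaks in range, 11.7% had both lower and 45.0% at least 1. The peak of 3833 base pairs (chr17:34561018-34564850) covered the start site and mostly lay upstream. The authors' deposited table puts its centre 1361 base pairs upstream of the TSS (a distance of −1361) and calls it intergenic. The peak of 4796 base pairs at the gene's end (chr17:34586854-34591649), the widest of the 22, reached into the neighbouring gene Gpsm3. In the authors' deposited table it carries the name of Gpsm3, as a promoter peak. Notch1, the receptor of T cell and arterial fate, had no peak over its start site or in its span of 45.9 kb. Its 1 peak within 5 kb was a lower one of 1167 base pairs (chr2:26506825-26507991), centred 3.6 kb upstream of the start site, and the authors' deposited table gives it to the lncRNA gene Gm35978.

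All 3 Delta-like ligand genes had a lower peak over a start site, against 30.1% of protein-coding genes with a peak over a start window. Of their 9 peaks within 5 kb, 7 were lower (77.8%, against 20.3% for all protein-coding genes). Dll1, a ligand of somite formation and neurogenesis, had a lower peak of 2784 base pairs (chr17:15374499-15377282) that covered both of its RefSeq start sites. Its other peaks, one of 1110 base pairs 7.3 kb from a start site, inside the gene, and one of 741 base pairs 4.3 kb upstream, were in neither list.

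Dll3, a ligand that acts mainly by inhibiting Notch signalling within its own cell and is needed for regular somites, had 3 peaks, all lower. The start-site peak of 3983 base pairs (chr7:28298520-28302502) ran from upstream of the start into the gene. The authors' deposited table centres it 1274 base pairs downstream of the TSS, in intron 2 of 8. Near the gene's end lay a lower peak of 1064 base pairs (chr7:28294111-28295174), which the authors' deposited table annotates as exon 7 of 9 of Dll3 and names for Selenov. The third, of 1506 base pairs (chr7:28290133-28291638), lay past the end of Dll3. The authors' deposited table places it in exon 1 of 6 of Selenov, a selenoprotein gene, 301 base pairs from that gene's TSS.

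Dll4, a ligand of arterial and tip cell fate, also had 3 peaks, all lower. The start-site peak of 968 base pairs (chr2:119325445-119326412) is annotated in the authors' deposited table as 5′ UTR, in exon 1 of 11, 144 base pairs from the TSS. It also overlaps the span of the lncRNA gene Gm14207. A narrow peak of 628 base pairs (chr2:119332211-119332838) fell in exon 9 of 11 of Dll4 in the authors' deposited table, but is named there for Gm14207. The third, of 771 base pairs (chr2:119337414-119338184), lay past the gene's end, in a CpG island by the authors' deposited table. Among all protein-coding genes with exactly 3 peaks in range, every peak was lower in 4.97%, and at least 1 in 51.4%. The 5 genes here with exactly 3 peaks are Notch2, Notch3, Dll1, Dll3 and Dll4, and each had at least 1 lower peak.

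The Jagged genes had no lower peak. Jag1, a ligand of bile duct, heart and inner ear development, had a single broad peak over its start site, of 4035 base pairs (chr2:137114092-137118126), in neither list. Of protein-coding genes with exactly 1 peak in range, as at Jag1, Notch1 and Hes5, that peak was lower in 26.5%. Jag2, a ligand of limb and palate development, had a start-site peak of 2583 base pairs (chr12:112928491-112931073) and one of 1143 base pairs in the gene 20028 base pairs from the start (chr12:112908896-112910038), both in neither list. All 3 peaks are wider than the median of 977 base pairs over all peaks, and the peak of 1143 base pairs is at percentile 58.3 of width. With 3 peaks the exact interval of the lower share runs from 0 to 70.8%, and with the 9 of the Delta-like genes from 40.0 to 97.2%. These intervals cover counting only and take peaks at 1 gene as independent, which they are not. Whether Jagged and Delta-like genes differ was not tested.

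Hes5 is a repressor gene of neural stem cells that the intracellular domain of Notch switches on through RBPJ. It had 2 entries in the list of lower peaks and 1 peak within 5 kb, which was lower. One peak of 1457 base pairs (chr4:154960386-154961842) covered the start site and most of the gene, whose span is 1.75 kb. In the authors' deposited table it is centred 191 base pairs from the TSS, in intron 1 of 2 and in a CpG island. The other, of 777 base pairs (chr4:154952726-154953502), lay upstream, with a distance of −7809 base pairs in the authors' deposited table. The RBPJ core motif TGGGAA, searched on both strands, occurred 2 times in the start window of Hes5 (250 bases before to 50 after the start, chr4:154960673-154960972, plus strand, RefSeq, GRCm38.p6). It is shown because this is the only one of the members' 11 start windows with the motif, which stands in capitals in the line below, once on the opposite strand from −226 to −221 and once on the gene's own strand from −82 to −77, counting the start as 1 and the base before it as −1.
Hes5: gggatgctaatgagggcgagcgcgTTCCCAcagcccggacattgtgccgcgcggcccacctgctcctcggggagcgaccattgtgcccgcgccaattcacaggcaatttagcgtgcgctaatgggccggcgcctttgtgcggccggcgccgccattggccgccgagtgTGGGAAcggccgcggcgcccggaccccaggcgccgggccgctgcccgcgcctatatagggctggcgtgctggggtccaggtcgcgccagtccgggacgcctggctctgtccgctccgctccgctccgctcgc
Both matches lay under the lower peak. Of 21263 start windows of protein-coding genes, 24.5% held the core at least once and 3.61% 2 or more times, and of the windows under a lower peak 21.3% held it, so the letters alone are common. A match is not a site shown to be bound.

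At the start sites, 6 of the 10 genes had a lower peak over a start window (Notch2, Notch4, Dll1, Dll3, Dll4 and Hes5), 3 a peak in neither list (Notch3, Jag1 and Jag2) and Notch1 no peak. Of all protein-coding genes with a start window, 52.8% had a peak there. Of the 9241 protein-coding genes with a peak over a start window, 30.1% had a lower one. Where a peak was present it covered all 300 bases of the window. By the authors' distance, taken from the centre of the peak, 4 of the 10 (Notch2, Dll1, Dll4 and Hes5) had a lower peak within 1 kb of a TSS, against 14.7% of protein-coding genes. Notch4 and Dll3 fell outside that limit because their broad peaks are centred further off.

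The windows under lower peaks ranged from poor to rich in CpG. RefSeq windows were matched for all 10 genes, with 2 for Dll1. The lines below show the range for receptors and ligands, each on the gene's own strand and with each CpG in capitals: Notch4 (chr17:34564045-34564344, plus strand) as the lower window with fewest CpG, Notch2 (chr3:98013288-98013587, plus strand) as the one with most beside Hes5, Dll4 (chr2:119325534-119325833, plus strand) as the lower window with the strongest excess of G over C, Jag2 (chr12:112929446-112929745, minus strand) under a peak in neither list, and Notch1 (chr2:26503773-26504072, minus strand) with no peak.
Notch4: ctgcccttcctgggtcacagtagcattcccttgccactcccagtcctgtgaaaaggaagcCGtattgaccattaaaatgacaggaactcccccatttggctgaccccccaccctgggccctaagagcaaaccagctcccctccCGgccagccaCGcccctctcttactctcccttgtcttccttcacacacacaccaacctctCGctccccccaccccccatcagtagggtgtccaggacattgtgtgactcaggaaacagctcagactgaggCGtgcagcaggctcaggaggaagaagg
Notch2: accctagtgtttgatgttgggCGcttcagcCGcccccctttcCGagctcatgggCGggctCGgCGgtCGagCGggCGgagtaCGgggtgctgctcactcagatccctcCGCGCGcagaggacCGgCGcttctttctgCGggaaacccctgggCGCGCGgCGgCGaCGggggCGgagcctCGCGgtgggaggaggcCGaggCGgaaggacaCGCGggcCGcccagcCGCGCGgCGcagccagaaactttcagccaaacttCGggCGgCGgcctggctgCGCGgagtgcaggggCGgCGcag
Dll4: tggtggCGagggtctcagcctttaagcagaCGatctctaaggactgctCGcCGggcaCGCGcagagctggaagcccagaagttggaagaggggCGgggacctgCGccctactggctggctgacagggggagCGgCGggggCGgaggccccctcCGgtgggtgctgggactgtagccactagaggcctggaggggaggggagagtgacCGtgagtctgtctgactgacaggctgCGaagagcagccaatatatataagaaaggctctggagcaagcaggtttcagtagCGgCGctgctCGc
Jag2: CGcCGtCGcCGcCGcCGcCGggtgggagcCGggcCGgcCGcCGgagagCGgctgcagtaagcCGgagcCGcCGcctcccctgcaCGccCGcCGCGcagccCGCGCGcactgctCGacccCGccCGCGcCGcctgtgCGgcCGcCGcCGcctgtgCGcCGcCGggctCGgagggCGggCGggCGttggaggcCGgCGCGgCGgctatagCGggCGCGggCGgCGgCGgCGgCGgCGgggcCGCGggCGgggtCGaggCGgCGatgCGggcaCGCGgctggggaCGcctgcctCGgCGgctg
Notch1: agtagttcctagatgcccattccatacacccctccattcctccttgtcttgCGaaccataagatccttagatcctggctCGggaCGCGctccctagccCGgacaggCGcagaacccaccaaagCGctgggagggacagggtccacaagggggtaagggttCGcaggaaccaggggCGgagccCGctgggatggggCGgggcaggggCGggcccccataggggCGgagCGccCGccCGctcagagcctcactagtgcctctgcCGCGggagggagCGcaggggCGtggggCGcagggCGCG
The Notch4 window held 5 CpG at a GC content of 58.3%, and its ratio of observed to expected CpG was 0.214. The Notch2 window held 41 CpG at 73.0% GC, with a ratio of 1.04, and the Hes5 window also 41 at 72.7% GC. The Dll4 window held 17 CpG, and its GC skew, the excess of G over C as a share of both, was 0.246 (percentile 94.1 among all windows). The Jag2 window held 63 CpG at 86.0% GC, above nearly all other windows (percentile 99.9 of GC content). The Notch1 window, without a peak, held 23 CpG at 68.3% GC, so a CpG-rich window was not always one with an H2A.Z peak.

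Over the lower windows of the 10 genes, GC content ran from 52.0% (Dll3) to 73.0% (Notch2), and over those in neither list from 55.7% (Jag1) to 86.0% (Jag2). The ranges overlap. Across all protein-coding genes the median GC content was 64.0% for windows under lower peaks and 59.3% under peaks in neither list, and the median ratios of observed to expected CpG were 0.726 and 0.713, against 0.267 for windows without a peak. GC skew took both signs among the lower windows of these genes: it was −0.291 at Notch4 and −0.231 at Dll3, percentiles 1.98 and 4.7, and 0.246 at Dll4. Over all genes its median was 0.0142 under lower peaks and 0.0145 under peaks in neither list. The windows reach only 50 bases past the start, so skew further into the transcribed part was not measured. A link to R-loops was not tested. The N box CACNAG, at which Hes proteins bind, was found on either strand in 5 of the 11 windows, those of Notch1, Notch2, Notch3, Dll4 and the upstream Dll1 start, and in 41.9% of all windows. In Notch1, 2 of its 3 matches overlap. The E box CACGTG and the TATA box TATAAA were found in 0 of the 11 windows, and in 7.84% and 12.6% of all windows.

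**Figure D2:**
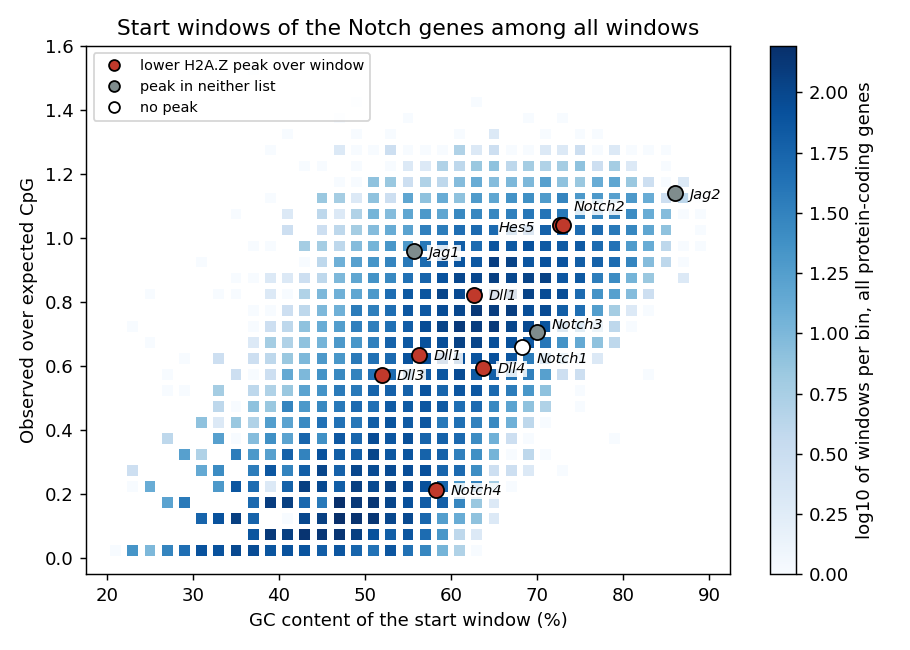
GC content in percent (horizontal) and the ratio of observed to expected CpG (vertical) of the 11 start windows of the 10 genes, as points coloured by peak status, over the binned windows of all protein-coding genes. Red points, under lower peaks, spread from Notch4 at 0.214 to Notch2 and Hes5 at 1.04.

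Lower H2A.Z at these genes was found at narrow and at broad peaks, although none of the 22 came near the 20061 base pairs of the broadest peak of the set. The 14 lower peaks had a median of 1115.5 base pairs (range 501 to 4796), and the 8 in neither list a median of 1126.5 (range 741 to 4035). Over all peaks the median was 977 base pairs, 1034 for lower ones and 967 for those in neither list. Of the 14 lower peaks 8 were wider than the median of all peaks, and of the other 8 peaks 6 were. The start-site peaks of Notch4, Dll3 and Jag1 were alike in width, at percentiles 93.6, 94.2 and 94.3 of the set, while Notch4 and Dll3 were lower there and Jag1 was in neither list.

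**Figure D3:**
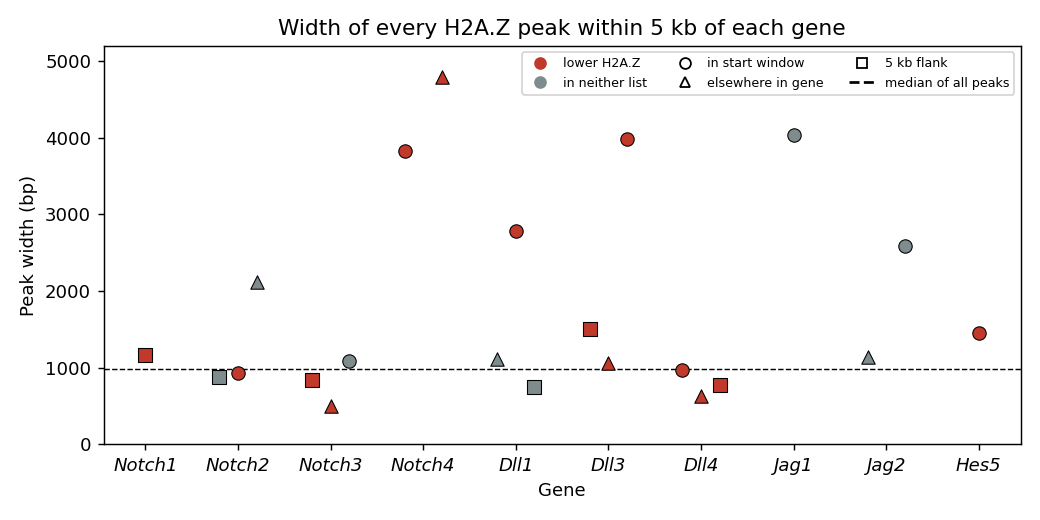
Width in base pairs (vertical) of each of the 22 H2A.Z peaks within 5 kb of the 10 genes (horizontal), red for lower peaks and grey for peaks in neither list, with circles for start windows, triangles for other places in the gene and squares for the flanks. The dashed line is the median of all peaks, 977 base pairs, and both colours lie on both sides of it.

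Lower peaks at these genes were not restricted to start sites. Of 9 peaks over a start window 6 were lower (66.7%, exact interval 29.9 to 92.5%), of 7 elsewhere in the genes 4 (57.1%, 18.4 to 90.1%) and of 6 in the flanks 4 (66.7%, 22.3 to 95.7%). Over all pairs of a protein-coding gene and a peak within 5 kb of it, 29.5%, 17.2% and 22.7% of the peaks at these places were lower, and 22.1% of all pairs. All 3 downstream flank peaks were lower, at Notch3, Dll3 and Dll4, and 1 of the 3 upstream ones, at Notch1. The lower peak at the end of Notch4 counts as elsewhere in the gene by overlap, although its centre lies beyond the gene. The peaks at 1 gene share a locus and are not independent, and 5 of the 22 also overlap the span of another gene.

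**Figure D4:**
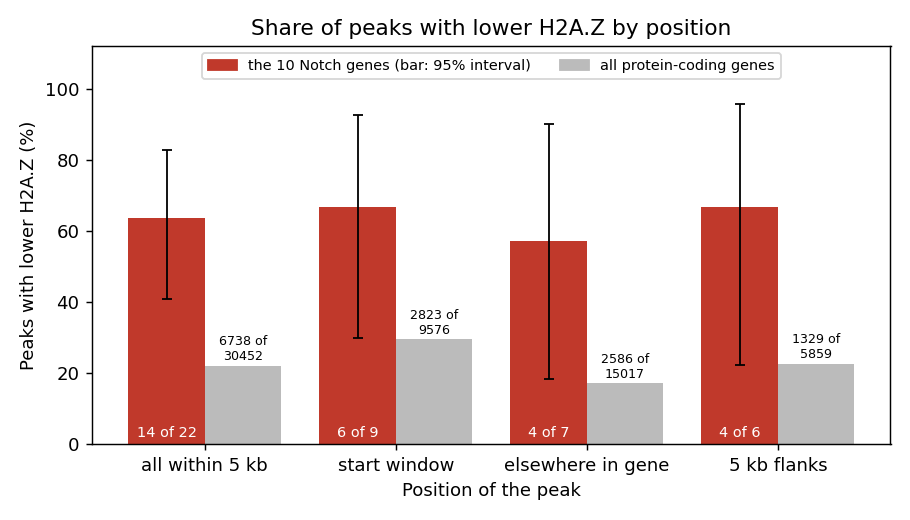
Percent of peaks with lower H2A.Z (vertical) by position relative to the gene (horizontal), for the 10 Notch genes in red with 95% exact intervals and for all protein-coding genes in grey; numbers give lower peaks of all peaks. The red bars stand at 57.1 to 66.7% and the grey bars at 17.2 to 29.5%.

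The gene names in the authors' lists go by the nearest TSS and miss part of this. Of the 14 lower peaks within 5 kb of the 10 genes, 6 are named for the gene and 8 for a neighbour. Of those 8, 4 overlap the gene itself, at the ends of Notch3 and Notch4 and in the exons of Dll3 and Dll4 given above. Notch1 and Notch3 have no entry of their own in the list of lower peaks, although lower peaks lay within 5 kb of them. The Hes5 peak 7.8 kb upstream shows the opposite, as it is named for the gene but lies outside the 5 kb range.

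Across the rest of the pathway, the list of lower peaks named genes of every role, from 2 of 8 nuclear effectors to 5 of 6 other ligands. Of 55 other pathway genes, 29 (52.7%) were named in the list of lower peaks and 0 in the list of higher peaks, against 26.5% and 0.918% of all protein-coding genes, so the count of 0 is near its background. By position 46 of 150 peaks within 5 kb of them were lower (30.7%), against 20.3% for all protein-coding genes. These genes were likewise listed with earlier results of these data known, and no test was made.

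Among nuclear effectors 2 of 8 were named (against 26.5% of all protein-coding genes), and of the 48 peaks within 5 kb of them 6 were lower (12.5%, below the 20.3% for all protein-coding genes). Maml3, a Mastermind co-activator, had 4 entries, led by one of 2690 base pairs, in intron 1 of 4 by the authors' deposited table. Another, of 501 base pairs, is annotated there as intergenic at a distance of −59.6 kb. Counted by position and not by name, 4 of the 21 peaks within 5 kb of Maml3 were lower. Maml2 also had 21 peaks in range, and 0 of them were lower, and the single peak at Rbpj, the DNA-binding partner itself, was in neither list. Maml2 and Rbpj were picked out after their values were seen.

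Among the genes listed as targets 8 of 13 were named (61.5%, against 26.5% of all protein-coding genes). Whether each of them answers to Notch in these cells was not tested. Dtx1, which encodes a ubiquitin ligase that binds Notch, had 3 entries, the widest of 5848 base pairs, in exon 3 of 10 by the authors' deposited table. Of the 7 peaks within 5 kb of Dtx1, 4 were lower. In the authors' deposited table the somite clock gene Hes7 had one of 2154 base pairs in intron 2 of 3, Hes6 one of 2134 at its promoter, and Nrarp, a feedback inhibitor of the Notch complex, 4 of up to 2132 base pairs. Hes1, Hes3 and Heyl were named too. Hey1 was named for a peak at a distance of −119.1 kb in the authors' deposited table, and its 1 peak within 5 kb was in neither list. The target genes Hey2, Bcl6, Myc, Id4 and Gata3 were not named, although 1 lower peak lay within 5 kb of Id4. Of 31 peaks within 5 kb of the genes listed as targets, 15 were lower (48.4%, against 20.3% for all protein-coding genes).

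Among the other ligands of the family 5 of 6 were named (83.3%, against 26.5% of all protein-coding genes). In the authors' deposited table Dlk1, an imprinted non-canonical ligand, had a lower promoter peak of 4624 base pairs and one in exon 5 of 5. Egfl7 had one of 1670 at its promoter and one of 3626 at a distance of −29.7 kb, and Cntn1 one of 1174 in intron 1 of 23. Dlk2 had one of 2163 at the 5′ UTR and one of 634 at a distance of 12.4 kb. The latter is annotated there as intron 11 of 19 of a transcript other than that of Dlk2. Of the 20 peaks within 5 kb of these ligand genes 6 were lower (30.0%, against 20.3% for all protein-coding genes). Of the glycosyltransferases that add sugars to the receptor 3 of 5 were named (60.0%, against the same 26.5%). Of their 9 peaks in range 6 were lower (66.7%, against the same 20.3%). Lfng and Mfng, fringe enzymes that tune which ligand a receptor answers to, had 2 of 2 and 4 of 4 peaks in range lower, the widest 2613 and 1965 base pairs. The peak of 1965 base pairs lies at a distance of −5.4 kb from the Mfng TSS. The authors' deposited table annotates it as intron 17 of 20 of a transcript other than that of Mfng. The third fringe, Rfng, was named for a peak of 3538 base pairs 20.4 kb from its TSS in the authors' deposited table, and its 1 peak in range was in neither list. Pofut1 and Poglut1, which start the sugar chains, were not named and had 1 peak each in range, in neither list.

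Among genes of ligand endocytosis 2 of 4 were named in the authors' deposited table, Mib2 at its promoter (808 base pairs) and Neurl1b in intron 1 of 4 (501 base pairs). Of the proteases 5 of 9 were named in the authors' deposited table, among them both ADAM proteases that cut the receptor outside the membrane, Adam10 (1566 base pairs, intron 1 of 15) and Adam17 (1030 base pairs, promoter), the gamma-secretase subunit gene Aph1b (1381 base pairs, promoter) and Psen2 (714 base pairs, at a distance of −33.1 kb). Of the genes of receptor turnover 4 of 10 were named, Dtx4 (1757 base pairs), Dtx3 (1368), Fbxw7 (626), which marks the intracellular domain for destruction, and Numbl (501). Of the peaks within 5 kb, 3 of 8 were lower for ligand endocytosis (37.5%) and 5 of 14 for the proteases (35.7%). For receptor turnover 5 of 20 were lower, the smallest of these shares and the nearest to the background. That background is 20.3%, the lower share of all peaks within 5 kb of a protein-coding gene. For the counts of named genes in these roles, the background is 26.5% of all protein-coding genes.

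**Figure D5:**
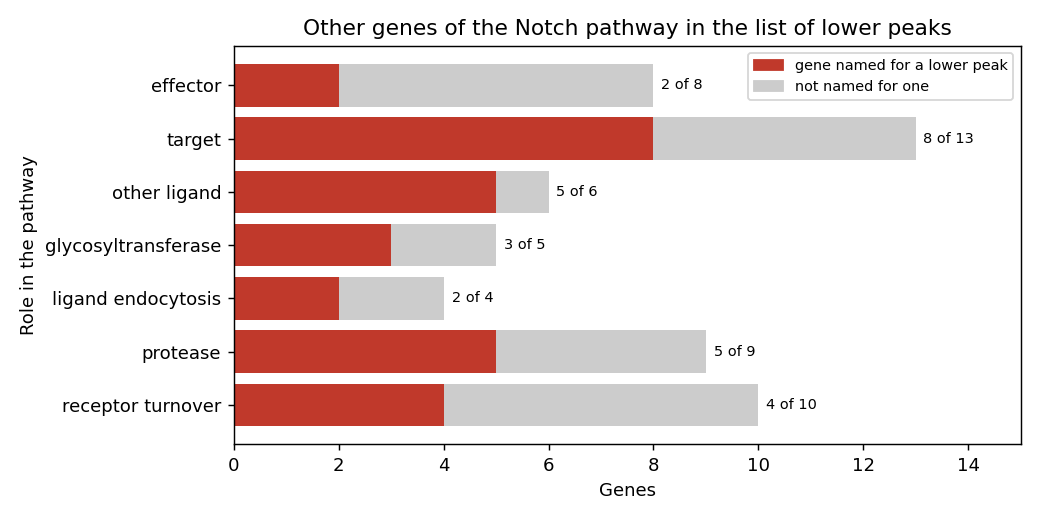
Number of other Notch pathway genes in each role (horizontal) that the authors' list of lower peaks names, in red, and does not name, in grey. The red part runs from 2 of 8 effectors to 5 of 6 other ligands.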

How the data were processed

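H2A.Z CUT&Tag of 4 control and 4 Dox libraries is given as 1 peak set and 2 lists of changed peaks. Per the file headers, the authors annotated the lists with HOMER annotatePeaks on mm10. The submitters' processing notes name Trimmomatic, Bowtie2, Picard, HOMER, deepTools and GRCm38. Which tool did what, their versions, the peak caller, how changed peaks were tested and whether libraries were pooled is not given in the sources used here. The peak score the authors deposited is 0 throughout and was not used. Starts are printed counting from 1.

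Peaks were matched to the lists by exact coordinates. A peak lay at a gene if it overlapped by 1 base the RefSeq span (GRCm38.p6) with 5 kb on each side. The same rule was run over 21887 protein-coding genes. Shares have exact Clopper-Pearson intervals, and the limit for a count of 0 is 3 counts of the total. No test was run, since no file used here holds values per library. Counting code was tested on simulated data. The members and lists were chosen with earlier results of these data known. All 10 members are named, and of other pathway genes those with a changed peak, at most 4 per role by width, of which 1 is not reported here. Protein sequences were not used here. Software was SciPy 1.17.1, pandas 2.3.3, numpy 2.4.6 and matplotlib 3.10.9 under Python 3.11.15.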

Additional observations from a re-analysis of the deposited data

How the results depend on the processing

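The share of lower peaks at the 10 genes was 62.5% (10 of 16) within the gene spans alone, 62.2% (23 of 37) within 20 kb, 63.6% when the centre of the peak had to lie in range and 61.9% (13 of 21) without peaks of the minimum width, against 21.7%, 18.0%, 20.6% and 20.8% for all protein-coding genes under the same settings. The number of peaks counted rose from 22 to 37 within 20 kb, because the range is wider. Genes with a lower peak numbered 6 by the authors' names, 8 within 5 kb, 7 (of the 9 with a peak there) within the spans and 6 by name without peaks of the minimum width, against 26.5%, 39.6%, 38.0% and 23.7% of protein-coding genes (within 5 kb and the spans, of those with a peak there). Those with a lower peak near a TSS numbered 4 within 1 kb and within 500 base pairs, and 6 within 3 kb, against 14.7%, 12.0% and 16.7% of protein-coding genes. Other pathway genes numbered 29 of 55 by name (52.7%, against 26.5% of protein-coding genes). Within 5 kb they numbered 27 of the 51 with a peak there (52.9%, against 39.6%). No paired analysis was possible because the files hold no value per library, and replicates could not be left out for the same reason. Peak height is unknown here, so how easily each peak could be called was not tested.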

Other observations

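Between 5 and 20 kb of the 10 genes lay 15 further peaks, of which 9 were lower (60.0%) and 6 in neither list. Over all pairs of a protein-coding gene and a peak at that distance, 21.9% of the peaks were lower. The 6 in neither list were 2 at Notch2 and 1 each at Notch1, Notch3, Hes5 and Jag2 (the last at chr12:112897711-112898899). Between 5 and 20 kb of Jag2, whose own peaks were in neither list, lay lower peaks of 1198 base pairs at the promoter of Nudt14 (chr12:112941642-112942839) and of 5920 base pairs over the lncRNA gene Gm26583 (chr12:112944956-112950875), at percentile 98.0 of width. Downstream of Notch3, lower peaks of 1550 and 1355 base pairs (chr17:32112904-32114453 and chr17:32099623-32100977) followed the 2 at its end, so that all 4 peaks from the gene's end to 20 kb downstream were lower, while the peaks at its start and 6.5 kb upstream were in neither list. At Dll4 and Dll3 the next peak downstream was also lower, at the promoter of Chac1 (1618 base pairs) and in the only exon of Eid2b (635 base pairs). At Dll1 the next one upstream, at the promoter of Fam120b, was lower as well (1310 base pairs, chr17:15395536-15396845). Within 20 kb all 4 peaks of Dll3 and all 4 of Dll4 were lower, and 0 of 1 at Jag1.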
